A study of Arabidopsis thaliana with 8 samples.

Results

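The genes described here code for subunits, antenna proteins and assembly factors of the photosystems in Arabidopsis thaliana. They are the 54 nuclear loci, of 25686 loci with reads, whose description names a photosystem or light harvesting, with 9 LHCB loci left out by name. By the proteins named they comprise 15 subunits or relatives of photosystem I, 5 photosystem I antenna genes (LHCA), 12 photosystem II subunits or relatives, 5 remaining LHCB genes, 5 assembly factors, 10 PsbP-family genes and 2 others. The rule did not use any measured value. Its wording also takes in a pseudogene that resembles psbA (AT2G07688) and a pentatricopeptide repeat protein (AT3G22690), and it leaves out PSBO1 and LHCA1, whose descriptions lack those words.

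RNA was sequenced from hag1 mutants and wild-type Col plants at 4 stages of shoot regeneration from root explants. Sampling covered roots, explants held 4 days on callus-inducing medium (CIM), after 4 days on CIM and 2 days on shoot-inducing medium (SIM), and after 4 days on CIM and 2 weeks on SIM. Plants of both genotypes were germinated on Murashige and Skoog medium with sucrose and grown in long days under white light. The hag1 plants are mutants of HAG1, a histone acetyltransferase also called GCN5. The allele is not named in the labels. Each genotype and stage is a single library, and no label says whether libraries came from separate cultures. The sources used here give no age, explant number or pooling.

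Photosystem II takes electrons from water at the oxygen-evolving complex, and photosystem I uses light to pass electrons from plastocyanin to ferredoxin. Each core is surrounded by chlorophyll-binding antenna proteins, LHCB around photosystem II and LHCA around photosystem I. The reaction-centre proteins are coded in the plastid, while most small subunits, the antenna and the assembly factors are coded in the nucleus and imported. Roots grown in light hold few developed chloroplasts, callus on CIM is mostly pale, and shoots that form on SIM turn green.

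The libraries held 6.96 to 7.54 M uniquely placed reads, and 21336 to 22313 loci had a read. HAG1 had 21, 8, 16 and 13 reads in the hag1 libraries, in the order root, CIM, 2 days and 2 weeks on SIM, against 171, 204, 340 and 156 reads in the Col libraries, lower in hag1 at every stage. Of the mesophyll markers, RBCS1A, a small subunit of Rubisco, had 49, 12, 15 and 205 reads in hag1 and 58, 13, 14 and 450 in Col. The 3 mesophyll markers together ranged from 2.35 to 39.5 CPM (reads scaled to library size with TMM factors) in hag1 and from 2.33 to 79.7 CPM in Col, highest at 2 weeks in both. The 5 shoot meristem and boundary markers summed to 1.56, 23.8, 33.2 and 28.3 CPM in hag1 and 0.442, 18.9, 22.0 and 17.7 CPM in Col. CUC2 had the most reads of them on CIM and SIM, with STM at 15 reads in hag1 and 29 in Col at 2 weeks and CLV3 at 0 throughout. The 3 leaf primordium markers summed to 55.1, 24.5, 29.6 and 15.1 CPM in hag1 and 47.2, 29.1, 34.0 and 19.7 CPM in Col, highest in roots, with YAB3 at 0. KAN1 had most of those reads, 389, 177, 214 and 93 in hag1 and 319, 225, 280 and 113 in Col. FIL went the other way, with 0, 0, 0 and 8 reads in hag1 and 1, 0, 0 and 18 in Col. The 5 guard cell lineage markers reached 3.88 CPM in hag1 and 11.3 CPM in Col at 2 weeks, with MUTE at 0. Most of those reads were from KAT1, with 14, 17, 7 and 23 in hag1 and 1, 4, 1 and 69 in Col. SPCH had 3 reads in hag1 and 4 in Col at 2 weeks. The root hair and endodermis markers summed to 315 and 185 CPM in hag1 roots and 448 and 467 CPM in Col roots. Of the 2 endodermis markers, CASP1 had most of the root reads, 907 in hag1 and 2528 in Col. SCR was also read on callus, with 399, 288, 169 and 124 reads in hag1 and 641, 577, 980 and 249 in Col. In these bulk samples fewer cells of a type and less RNA per cell cannot be told apart.

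Reads of the 54 genes were scarce on callus and plentiful at 2 weeks. They made up 4855, 1369, 1800 and 13164 reads in hag1 at root, CIM, 2 days and 2 weeks, which is 0.0681%, 0.0191%, 0.0258% and 0.178% of each library. In Col they made up 5196, 1821, 2059 and 19406 reads, or 0.0689%, 0.0257%, 0.0278% and 0.279%. Both genotypes thus had their lowest sum on CIM and their highest at 2 weeks, and hag1 had fewer reads than Col at every stage. The direction in roots depended on the measure, since the RPKM sum there was 758.5 in hag1 and 739.8 in Col. At 2 days the scaled sums were 248.6 CPM in hag1 and 250.1 CPM in Col. Of the 46 genes with at least 50 reads over all libraries, 39 in hag1 and 42 in Col had their highest CPM at 2 weeks, where 27.6% of all loci with as many reads did so in hag1 and 26.5% in Col. The lowest CPM was on CIM for 31 genes in hag1 and 22 in Col, and after 2 days on SIM for another 11 genes in hag1 and 19 in Col. Over all such loci the lowest was on CIM for 23.9% in hag1 and 21.8% in Col, and at 2 days for 18.7% in hag1 and 20.5% in Col. Plastid-coded photosystem loci, of which 18 were counted, had 200, 118, 175 and 418 reads in hag1 and 425, 162, 269 and 674 in Col. Whether the libraries captured plastid and nuclear RNA alike was not tested, so these reads give no comparison with the nuclear genes.

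**Figure D1:**
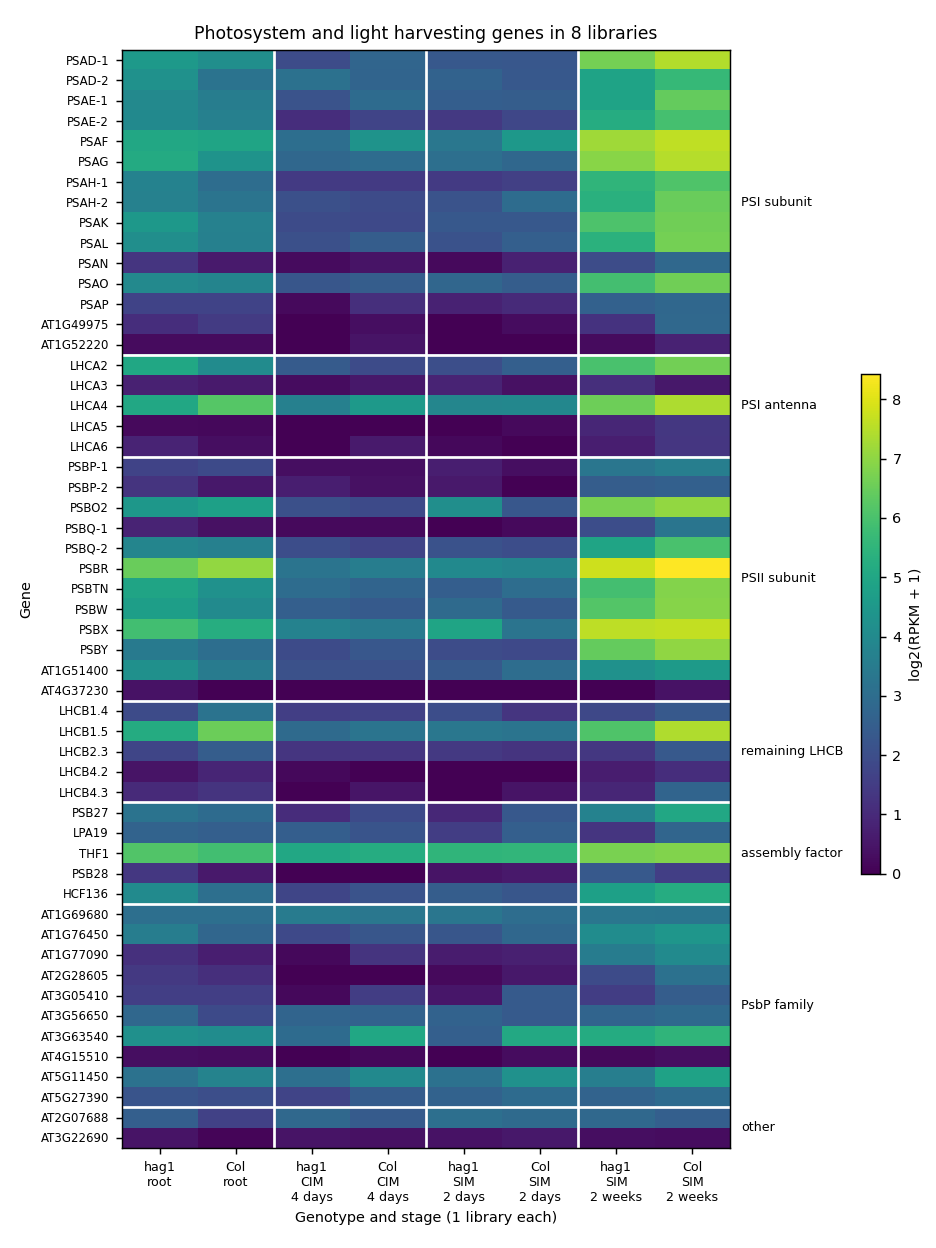
Level of each of the 54 genes (rows, grouped by role) in each of the 8 libraries (columns, hag1 beside Col at each stage), as log2(RPKM + 1). The 2 columns at 2 weeks on SIM are brightest for photosystem subunits, the CIM and 2-day columns are darkest, and THF1 and several PsbP-family genes vary less in shade than the subunits.

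Levels per length, in RPKM, reads scaled by model length and library total, separate the genes widely. PSBR, a small protein at the oxygen-evolving complex, had the highest mean, with 89.6, 8.35, 15.1 and 217 RPKM in hag1 and 132, 11.0, 13.3 and 342 RPKM in Col. PSBX, a small membrane subunit of photosystem II, followed with 57.0, 12.2, 29.5 and 190 RPKM in hag1 and 37.0, 10.3, 8.37 and 200 RPKM in Col. THF1, also called PSB29 and required for thylakoid formation, came next with 69.4, 31.9, 44.2 and 105 RPKM in hag1 and 57.1, 35.8, 45.8 and 113 RPKM in Col. On callus THF1 therefore had the highest level per length of these 3 genes, whereas at 2 weeks it had the lowest. The other means above 45 RPKM belonged to PSAF (57.8), LHCA4 (53.3), LHCB1.5 (49.6) and PSAG (47.4). At the low end 8 genes had under 50 reads in all libraries together. The 7 genes listed with more than 1 transcript model (PSAN, PSAP, LHCA3, LHCA5, LHCB4.3, AT3G05410 and AT4G15510) had a median coverage of 12.2% of their length, against 73.8% for genes with 1 model, so their levels are uncertain. Some genes with 1 model were also thinly covered, among them PSBQ-1 (median 5.71%), PSBP-1 (8.82%) and PSB28 (8.96%).

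**Figure D2:**
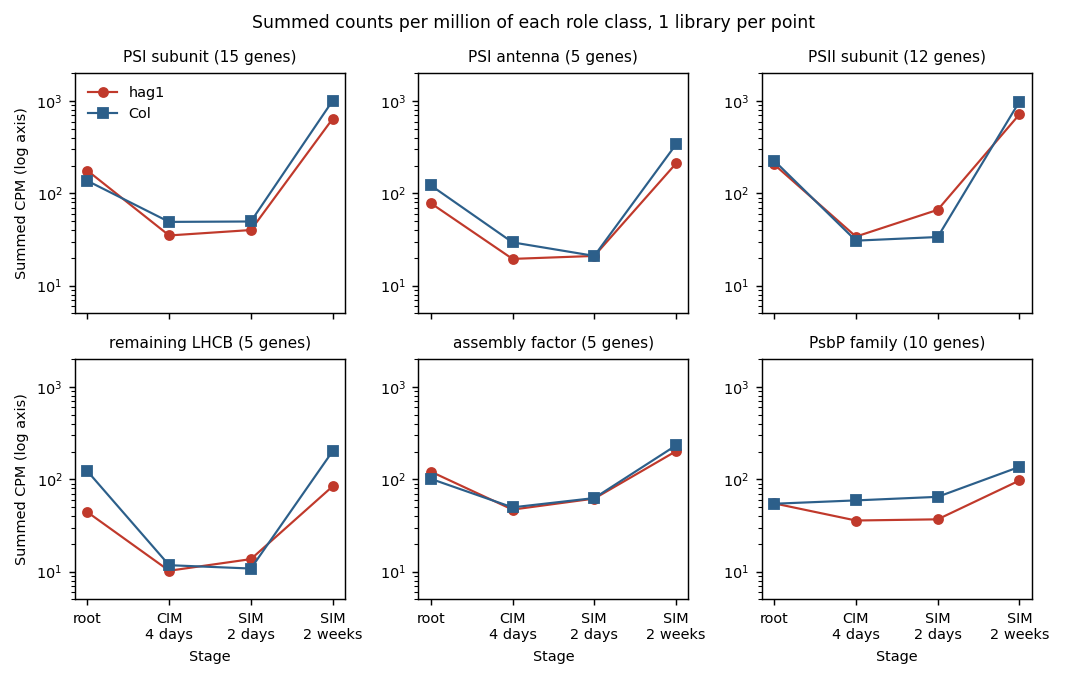
Summed CPM of each role class (log axis) at the 4 stages, with red circles for hag1 and blue squares for Col, 1 library per point. Photosystem I and II subunits dip on CIM and reach 642 and 717 CPM in hag1 and 1009 and 986 CPM in Col at 2 weeks, while the PsbP family stays between 35.8 and 137 CPM throughout.

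The promoters of these genes were searched for short elements named in studies of light-regulated genes. Whether these elements bear on the changes over the stages was not tested. Windows of 250 bases before the first transcribed base given in the files (TAIR10) were read for 53 of the 54 genes from the RefSeq TAIR10.1 genome. Both strands were searched for the G-box CACGTG, the I-box GATAAG and the CCAAT-type element CCAATC. The G-box stood in 24 of 53 windows (45.3%), against 7.88% of the windows of 25535 nuclear loci. The I-box stood in 25 of 53 (47.2%), against 12.8% of all windows, and CCAATC in 11 of 53 (20.8%), against 11.2% of all windows. By role the G-box was found in 9 of 12 photosystem II subunits, 4 of 5 LHCA genes and 4 of 5 assembly factors, in 5 of 15 photosystem I genes, and in 1 of 9 PsbP-family genes. CCAATC was found in 3 of 5 remaining LHCB genes and in 1 of 15 photosystem I genes. A match is a description of letters, and no test was made of it.

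The 4 windows printed here are those that overlap no gene in the TAIR10.1 annotation, so they hold no transcribed base of either annotation. They lie at chr3:17495034-17495283 (LHCA4, reverse strand), chr2:14523569-14523818 (LHCB1.5, reverse), chr4:2673244-2673493 (PSBQ-2, reverse) and chr1:28684301-28684550 (AT1G76450, forward). They are written 5′ to 3′ on the gene's strand and end at the base before the start, with capitals for any of the 3 elements on either strand.
LHCA4: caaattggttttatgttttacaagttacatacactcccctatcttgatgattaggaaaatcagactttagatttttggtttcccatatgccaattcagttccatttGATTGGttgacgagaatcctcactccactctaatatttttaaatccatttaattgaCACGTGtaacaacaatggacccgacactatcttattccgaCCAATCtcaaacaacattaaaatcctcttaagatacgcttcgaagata
LHCB1.5: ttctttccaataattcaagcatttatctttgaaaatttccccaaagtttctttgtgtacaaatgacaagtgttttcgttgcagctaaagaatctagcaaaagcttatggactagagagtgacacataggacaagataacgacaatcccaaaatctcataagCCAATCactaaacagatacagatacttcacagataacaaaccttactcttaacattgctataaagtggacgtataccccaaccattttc
PSBQ-2: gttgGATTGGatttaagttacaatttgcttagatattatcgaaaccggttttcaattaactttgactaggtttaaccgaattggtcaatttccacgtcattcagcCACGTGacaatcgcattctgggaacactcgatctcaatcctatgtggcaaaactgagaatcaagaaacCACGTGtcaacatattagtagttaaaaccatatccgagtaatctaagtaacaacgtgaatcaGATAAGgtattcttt
AT1G76450: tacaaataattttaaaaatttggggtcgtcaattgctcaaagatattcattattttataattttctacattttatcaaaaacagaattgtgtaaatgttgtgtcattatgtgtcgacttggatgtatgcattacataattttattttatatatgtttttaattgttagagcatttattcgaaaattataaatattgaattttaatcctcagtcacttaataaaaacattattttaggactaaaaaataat
LHCA4 holds 1 G-box, whose first letter is 88 bases before the start, and 2 CCAATC elements. LHCB1.5 holds a single CCAATC, 89 bases before the start, and PSBQ-2 holds 2 G-boxes, 1 I-box and 1 CCAATC. AT1G76450, a PsbP-domain gene, holds none of the 3.

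Between 2 days and 2 weeks on SIM the genes of both photosystems rose together. The edgeR quasi-likelihood fit used all 8 libraries with additive terms for stage and genotype, and Benjamini-Hochberg adjustment ran over 18710 loci, of which 45 were among the 54 genes; the other 9 had too few reads to test. Of the 45, 34 rose, none fell and 11 did not pass, where 7.09% of all loci tested rose and 4.31% fell. Their median log2 change was 3.78, against 0.01 over all loci. Low genes that entered the test through their reads at 2 weeks had to differ, so this count describes the tested genes and is no test of the group. The count was 12 without the Col library at 2 days, when LHCA2, LHCB1.5 and THF1 no longer passed, and 22 without the Col library at 2 weeks. The mesophyll markers RBCS1A and RCA also rose, by log2 4.62 and 4.66, and they too did not pass without the Col library at 2 days. CA1, the other mesophyll marker, changed by 0.83 and did not pass. KAN1, the 1 leaf primordium marker tested, was lower at 2 weeks, with a log2 change of -1.05. Of the other lists, 1 of 4 shoot meristem and boundary markers tested and 1 of 5 root hair markers rose. No xylem, endodermis or guard cell marker passed. The part of cell types in these changes was not tested.

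All 13 photosystem I subunits tested rose between 2 days and 2 weeks, by log2 2.84 to 5.28. PSAD-1, which forms the stromal docking site for ferredoxin, had 131, 17, 23 and 616 reads in hag1 and 107, 34, 24 and 1013 in Col. Both libraries at 2 weeks were above both at 2 days with no overlap, and the log2 change was 5.28 (SE 0.38, edgeR adjusted p = 0.00516). PSAF, the lumenal docking site for plastocyanin, had 216, 49, 61 and 1053 reads in hag1 and 212, 127, 151 and 1286 in Col, and its log2 change was 3.78 (SE 0.37, edgeR adjusted p = 0.00758). PSAG and PSAK, membrane subunits on the antenna side, rose by 4.69 and 4.55, and PSAH-1, PSAL and PSAO, at the docking side of mobile LHCII, rose by 5.07, 4.25 and 4.05. The smallest rise was that of PSAP, now known as the grana-bending protein CURT1B, at 2.84 (SE 0.58, edgeR adjusted p = 0.0356).

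Of the 5 LHCA genes, LHCA2 and LHCA4 had enough reads to test and both rose. LHCA2 had 249, 34, 24 and 519 reads in hag1 and 132, 22, 40 and 757 in Col, a rise of 4.54 on the log2 scale (SE 0.47, edgeR adjusted p = 0.00847). LHCA4 had 291, 105, 120 and 873 reads in hag1 and 688, 198, 129 and 1480 in Col, a change of 3.36 (SE 0.35, edgeR adjusted p = 0.00846). In neither gene did the libraries at 2 weeks overlap those at 2 days. LHCA3, LHCA5 and LHCA6 had at most 11 reads in any library.

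All 11 tested photosystem II subunits rose between 2 days and 2 weeks, by log2 2.09 to 6.07. PSBY, a small membrane subunit, had 77, 22, 22 and 694 reads in hag1 and 59, 30, 21 and 980 in Col. Its change of 5.47 (SE 0.31, edgeR adjusted p = 0.00428) had the lowest adjusted p of the class. PSBR rose by 4.45 (SE 0.29, edgeR adjusted p = 0.00450) with 460, 43, 76 and 1158 reads in hag1 and 716, 56, 71 and 1714 in Col. The fitted change was largest for PSBQ-1, a lumenal protein of the oxygen-evolving complex, at 6.07 (SE 0.95, edgeR adjusted p = 0.0193), but it rests on 75 reads at 2 weeks against 1 read at 2 days. The log2 ratio of those sums has a counting interval of 3.92 to 11.8. The smallest change was that of AT1G51400, a 5 kD photosystem II protein, at 2.09 (SE 0.38, edgeR adjusted p = 0.0270).

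The other classes were mixed. Of 4 LHCB genes tested, LHCB1.5 rose by 3.78 (SE 0.47, edgeR adjusted p = 0.0119) and LHCB4.3 by 4.14 (SE 0.91, edgeR adjusted p = 0.0421). LHCB4.3 had 3 reads at 2 days in all. LHCB1.4 and LHCB2.3, other photosystem II antenna genes, changed by 0.70 (SE 0.68) and 0.97 (SE 0.55) and did not pass. LHCB1.4 had 20, 14, 21 and 19 reads in hag1 and 63, 15, 11 and 29 in Col, highest in Col roots and with overlapping libraries at the late stages. Among assembly factors PSB27, HCF136 and THF1 rose by 3.40, 3.12 and 1.48, while PSB28 at 2.90 (edgeR adjusted p = 0.0567) and LPA19 at 0.24 (edgeR adjusted p = 0.831) did not pass. THF1 had 619, 285, 386 and 975 reads in hag1 and 539, 317, 424 and 984 in Col, with an SE of 0.15.

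**Figure D3:**
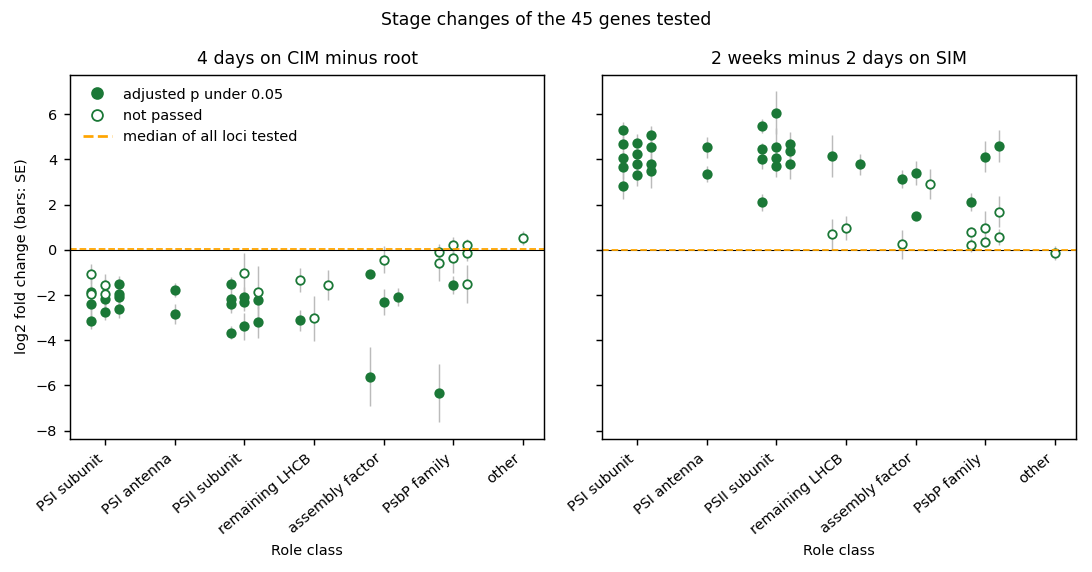
The log2 fold change of each of the 45 tested genes by role class, 4 days on CIM minus root (left) and 2 weeks minus 2 days on SIM (right), with bars for the SE of the edgeR fit. Filled points have an adjusted p under 0.05; the dashed line is the median of all loci tested. At 2 weeks all photosystem I and II subunits tested lie at or above 2.09, while PsbP-family genes reach down to 0.22.

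The PsbP family, PsbP-domain proteins of which some act in the assembly of thylakoid complexes, did not move as a block. AT1G76450, AT1G77090 and AT2G28605 rose at 2 weeks, 3 of 9 tested, by 2.12, 4.58 and 4.13. AT1G77090 had 9, 1, 4 and 81 reads in hag1 and 5, 10, 5 and 110 in Col, a pattern of low reads until 2 weeks (SE 0.70, edgeR adjusted p = 0.0182). AT1G69680 had 64, 90, 74 and 80 reads in hag1 and 68, 77, 62 and 72 in Col, and AT3G56650 had 46, 42, 39 and 44 reads in hag1 and 22, 40, 33 and 47 in Col. Neither passed in any stage change, and their late changes were 0.37 (SE 0.26) and 0.56 (SE 0.35). The psbA-like pseudogene AT2G07688 was the only tested gene with a negative change at 2 weeks, -0.15 (SE 0.31, edgeR adjusted p = 0.776).

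Before this rise the group was lower on CIM than in roots. Of 45 tested genes 27 fell after 4 days on CIM, none rose and 18 did not pass, where 17% of all loci tested fell and 12.7% rose. The median log2 change was -1.95, against 0.01 for all loci, and -1.86 with 2 genes at 0 reads on CIM set to their bound. Both photosystems fell, with 9 of 13 photosystem I subunits, 2 of 2 LHCA, 9 of 11 photosystem II subunits, 1 of 4 LHCB, 4 of 5 assembly factors and 2 of 9 PsbP-family genes passing. The count was 8 without the CIM library of either genotype, and 15 without the hag1 root library. Cell type markers moved over the same step: all 5 root hair markers fell (median log2 -9.14), as did all 3 xylem markers (-2.97), 1 of 2 endodermis markers and 2 of 3 mesophyll markers (-2.20). KAN1 also fell (-0.94), while 1 of 4 shoot meristem and boundary markers tested rose (median 1.94). The part of these markers in the fall of the photosystem genes was not tested.

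Among the subunits, PSBR fell by 3.67 on the log2 scale (SE 0.29, edgeR adjusted p = 0.00159), PSBP-1 by 3.39, PSBO2, a manganese-stabilising protein, by 3.21 and PSAE-2 by 3.13 (SE 0.38, edgeR adjusted p = 0.00436). PSAE-2, which lies beside the ferredoxin docking site, had 65, 5, 7 and 163 reads in hag1 and 54, 10, 11 and 256 in Col, so that the CIM and root libraries did not overlap. LHCB1.5 fell by 3.13 (SE 0.47, edgeR adjusted p = 0.00732), with 265, 49, 67 and 522 reads in hag1 and 717, 63, 65 and 1239 in Col. Without the Col CIM library LHCB1.5 no longer passed, and PSBO2 did not pass without the Col root library or either CIM library. PSAD-2 and PSAE-1 changed by -1.08 (SE 0.44) and -1.58 (SE 0.50) and did not pass, and LPA19, a lumenal assembly factor, changed by -0.43 (SE 0.61). PSB28 and AT2G28605 had no read in either CIM library, and against a floor of 3 reads per library they were at least 2.16-fold and 3.24-fold lower there than in roots.

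From CIM to 2 days on SIM the group changed little. No tested gene passed in edgeR, where 0.0641% of all loci were called higher and 0.00534% lower. Unadjusted, 4 of 45 had an edgeR p under 0.05, as had 1987 of the 18710 loci. DESeq2's Wald test called none of the 43 genes for which it gave an adjusted p, and 278 loci higher and 256 lower. Limma also called none of the genes, with 14 loci higher and 4 lower on log2(RPKM + 1) and 42 and 4 on log2(RPKM + 0.1). The median log2 change was 0.22, against 0.00 over all loci. PSBO2 and PSBX stood out in a single library. PSBO2 had 188, 28, 148 and 966 reads in hag1 and 247, 24, 36 and 1148 in Col, and PSBX had 256, 55, 130 and 888 in hag1 and 176, 46, 39 and 878 in Col. The hag1 library at 2 days was thus above hag1 on CIM and above Col at 2 days in both genes. The later rise of PSBO2 at 2 weeks did not pass without either library of that stage. In counts alone the hag1 to Col log2 ratio at 2 days was 2.22 for PSBO2 (95% counting interval 1.69 to 2.79) and 1.92 for PSBX (1.4 to 2.48).

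At 2 weeks the genes also stood above roots. Of 45 tested, 27 rose and none fell, where 11.9% of all loci rose and 14.9% fell, with a median log2 change of 1.76 against 0.04. These comprised 11 of 13 photosystem I subunits, 2 of 2 LHCA, 10 of 11 photosystem II subunits, 2 of 5 assembly factors and 2 of 9 PsbP-family genes, but 0 of 4 LHCB genes. PSBY rose by 3.66 over roots (SE 0.28, edgeR adjusted p = 0.00326), PSAD-1 by 2.78 (SE 0.32, edgeR adjusted p = 0.00639) and PSBR by 1.34 (SE 0.25, edgeR adjusted p = 0.0167). LHCB1.5 changed by 0.91 (SE 0.41, edgeR adjusted p = 0.153). Here too, low genes that entered the test through their reads at 2 weeks had to differ. PSBQ-1, for example, had 5 reads in hag1 roots and 2 in Col roots, against 20 and 55 at 2 weeks. The count of 27 therefore describes the tested genes and is no test of the group. The count was 7 without the Col root library, 9 without the Col library at 2 weeks and 17 without the hag1 library at 2 weeks. Over this comparison 2 of 3 mesophyll markers rose, as did 2 of 4 shoot meristem and boundary markers tested (median log2 6.12). The markers that fell were 4 of 5 root hair, 2 of 2 endodermis and 3 of 3 xylem markers. KAN1, the 1 leaf primordium marker tested, also fell (log2 change -1.74). The part of these markers was not tested.

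Averaged over the 4 stages, no tested gene passed for hag1 against Col in edgeR, where 0.241% of all loci were higher and 0.192% lower in hag1. Unadjusted, 7 of 45 had p under 0.05, as had 3845 of the 18710 loci. The median log2 difference was -0.31 against -0.02 over all loci. That median rests on the last stage: it was 0.03 without the Col library at 2 weeks and 0.046 without the hag1 library at 2 weeks. The gene nearest to passing was AT5G11450, a PsbP-domain gene, with 66, 60, 62 and 95 reads in hag1 and 108, 120, 152 and 223 in Col. All 4 hag1 libraries lay below all 4 Col libraries, and the fitted difference was log2 -1.01 (SE 0.16, edgeR adjusted p = 0.0650). DESeq2's Wald test called it lower (log2 -1.03, adjusted p = 0.00106), where that test called 4.87% of loci lower and 1.96% higher. AT5G11450 overlaps a gene on the opposite strand by 66 bases, and whether counting used strand is not stated. Of the 54 genes, 24 overlap another annotated gene, so their reads may be shared.

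A term for hag1 at 2 weeks beyond the earlier stages called no locus in edgeR (0% of all loci, 1005 at an unadjusted p under 0.05), so the genotype difference at 2 weeks was not shown to differ from that of the earlier stages. Of the 45 genes, 38 had a negative estimate, as had 9830 of the 18710 loci, with a median of -0.69 against -0.03 over all loci, and 3 had an unadjusted p under 0.05. Limma called no locus. DESeq2 called 4 loci higher and 62 lower, none of them among the 31 genes for which it gave an adjusted p. The SE of this term was large, 0.50 for PSAD-1 and 0.44 for PSBR, with estimates of -0.60 and -0.31.

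Within a stage hag1 and Col are 1 library each, so ratios are given with counting intervals and without a test. Genes needed 50 reads in hag1 or Col to enter. At 2 weeks 30 of 33 such genes were lower in hag1, where 46.5% of all loci were, with a median log2 ratio of -0.55 against 0.04 over all loci. For 25 of 33 the counting interval lay below equality, and for none above, where 27.5% of all loci lay below and 29.4% above. At least 2-fold lower were 8 of 33 (PSAE-1, PSBQ-1, PSB27, LHCB1.5, AT5G11450, PSAL, PSAH-2 and PSBQ-2), where 11.6% of all loci were 2-fold lower and 2.6% 2-fold higher. PSAL had 298 reads in hag1 and 687 in Col, a log2 ratio of -1.21 (-1.42 to -1.02), and PSAE-1 had 149 in hag1 and 411 in Col, a ratio of -1.47 (-1.75 to -1.20). PSBX, with 888 and 878 reads, and THF1, with 975 and 984, were near equality in hag1 and Col. The RBCS1A and mesophyll marker levels given above were also lower in hag1 at 2 weeks, and their part in these ratios was not tested.

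**Figure D4:**
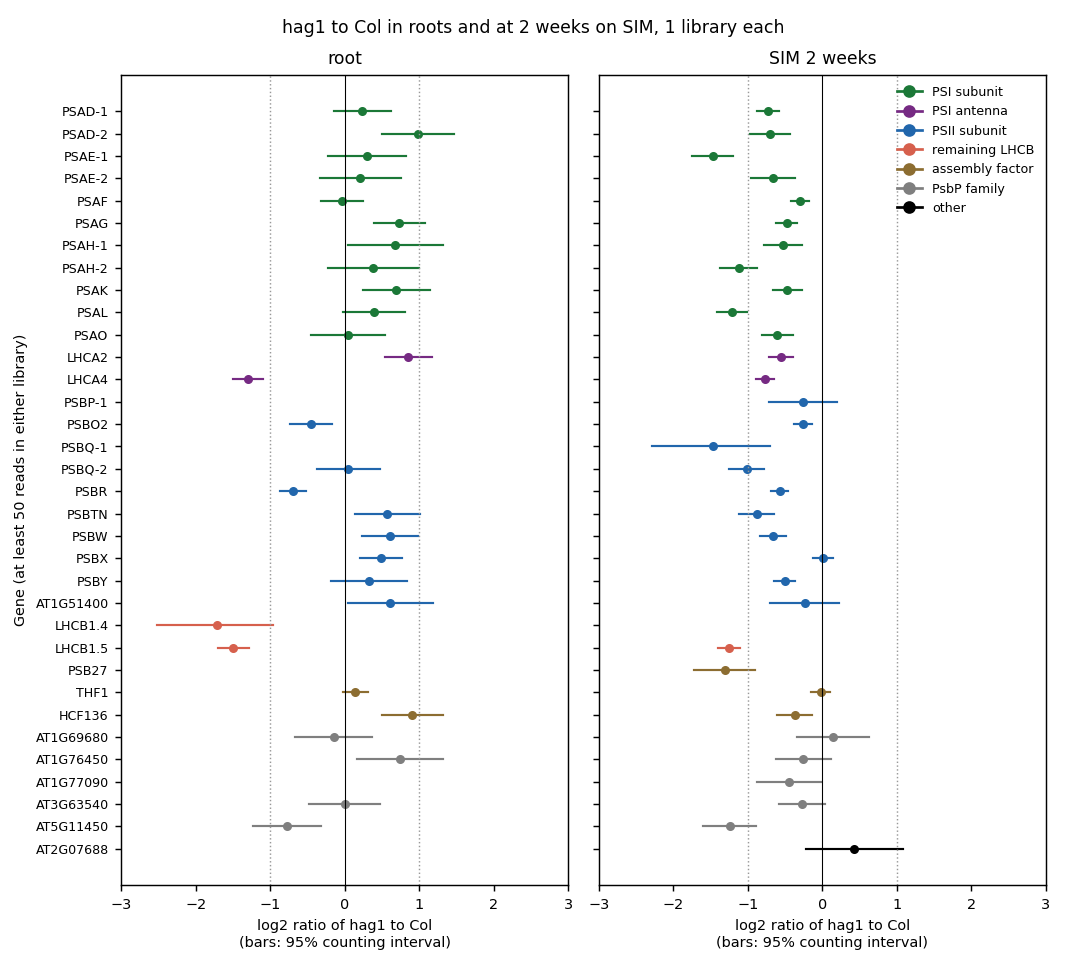
The log2 ratio of hag1 to Col for genes that reached 50 reads in hag1 or Col, in roots (left) and at 2 weeks on SIM (right), coloured by role class, with 95% counting intervals and dotted lines at 2-fold. In roots 20 of 29 genes lie right of 0 while LHCA4, LHCB1.4 and LHCB1.5 lie beyond 2-fold lower; at 2 weeks 30 of 33 lie left of 0.

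In roots more of the genes were higher than lower in hag1, but many counting intervals held equality. Of 29 genes with at least 50 reads, 20 were higher in hag1 roots, where 45.2% of all loci were. The interval lay above equality for 11 of 29, below it for 6 and held it for 12. That count was not made over all loci, so it is not shown to be particular to these genes. The summed level of the 54 genes in roots was 687 CPM in hag1 and 766 CPM in Col. At least 2-fold lower were 3 of 29 and none was 2-fold higher, where 7.83% of all loci were 2-fold lower and 4.39% higher. The 3 low genes were antenna genes, but 5 of the 9 LHCB loci left out of the group were above 0 in roots. LHCA4 had 291 reads in hag1 and 688 in Col (log2 -1.30, counting interval -1.50 to -1.10), LHCB1.5 had 265 and 717 (-1.49, -1.70 to -1.29) and LHCB1.4 had 20 and 63 (-1.71, -2.52 to -0.97). LHCA2, also an antenna gene, stood on the other side with 249 reads in hag1 and 132 in Col, a ratio of 0.86 (0.55 to 1.17). Of 11 photosystem I subunits 10 were above 0, among them PSAD-2 with 115 and 56 reads (0.98, 0.51 to 1.47) and PSAG with 194 and 112 (0.73, 0.39 to 1.08). The assembly factor HCF136 was at 0.90 (0.50 to 1.31). PSBR and PSBO2 were lower in hag1 roots, at -0.70 (-0.87 to -0.53) and -0.45 (-0.73 to -0.17). Under scaling by total counts, which puts the all-loci median at 0.09 against -0.05 here, 2 genes were at least 2-fold higher in hag1 roots.

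On callus few genes had 50 reads, and PSAF and AT3G63540 stood lowest in hag1. On CIM 2 of 10 genes were at least 2-fold lower in hag1 and none higher, where 7.64% of loci were lower and 5.01% higher. After 2 days on SIM 3 of 12 were 2-fold lower and 2 higher, where 9.61% of loci were lower and 5.48% higher. PSAF was lower in hag1 at both, with log2 ratios of -1.28 (-1.78 to -0.79) and -1.12 (-1.58 to -0.68), but near equality in roots at -0.03. AT3G63540, a PsbP-domain gene, had 78, 30, 21 and 163 reads in hag1 and 75, 139, 152 and 195 in Col. It was lower in hag1 on CIM by -2.11 (-2.73 to -1.54) and at 2 days by -2.67 (-3.40 to -2.01), near equality in roots, and its counting interval at 2 weeks, -0.58 to 0.04, held equality. AT3G63540 shares 91 bases on the same strand with the neighbouring locus AT3G63530, which had 99 reads in all libraries. LHCA4 was lower in hag1 on CIM at -0.82 (-1.17 to -0.47), and level with Col at 2 days at 0.08.

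Several photosystem I subunits are coded by a pair of genes, and the reads split between them differently by stage. Shares of reads within a library do not depend on scaling, and intervals are exact binomial ones that cover counting error only. PSAD-1 held 53.3%, 25.4%, 41.1% and 76.7% of PSAD reads in hag1 and 65.6%, 49.3%, 48.0% and 77.0% in Col. At 2 weeks the share was 76.7% (73.6 to 79.6) in hag1 and 77.0% (74.7 to 79.3) in Col, above every other library of either genotype. Between 2 days and 2 weeks PSAD-2 rose by 3.30 (SE 0.47, edgeR adjusted p = 0.0155), against 5.28 for PSAD-1, and the difference between them was not tested.

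The PSAE and PSAH pairs behaved otherwise. PSAE-1 held 52.9%, 77.3%, 76.7% and 47.8% of PSAE reads in hag1 and 51.4%, 76.7%, 68.6% and 61.6% in Col. The shares in the callus libraries were above those of roots in both, but rest on 22 to 43 reads per library. Only the interval of Col on CIM (61.4 to 88.2) cleared that of roots of the same genotype (41.7 to 61.0). At 2 weeks the intervals of hag1 (42.1 to 53.5) and Col (57.8 to 65.3) did not overlap. PSAH-1 held 50.4%, 34.8%, 33.3% and 53.0% of PSAH reads in hag1 and 45.5%, 38.1%, 22.7% and 42.7% in Col, and at 2 weeks the intervals of hag1 (48.1 to 58.0) and Col (39.1 to 46.4) did not overlap either. Among lumenal proteins PSBQ-1 had fewer reads than PSBQ-2 in every library, with 20 of 245 PSBQ reads in hag1 and 55 of 506 in Col at 2 weeks. The median coverage was 5.71% for PSBQ-1 and 64.5% for PSBQ-2, so the shares within this pair are uncertain. PSBP-1 and PSBP-2 had at most 120 reads together, 70.8% from PSBP-1 in hag1 and 74.2% in Col at 2 weeks, and PSBP-1 was thinly covered (median 8.82%). Only uniquely placed reads were counted, so reads from stretches shared by a pair are missing from both genes.

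**Figure D5:**
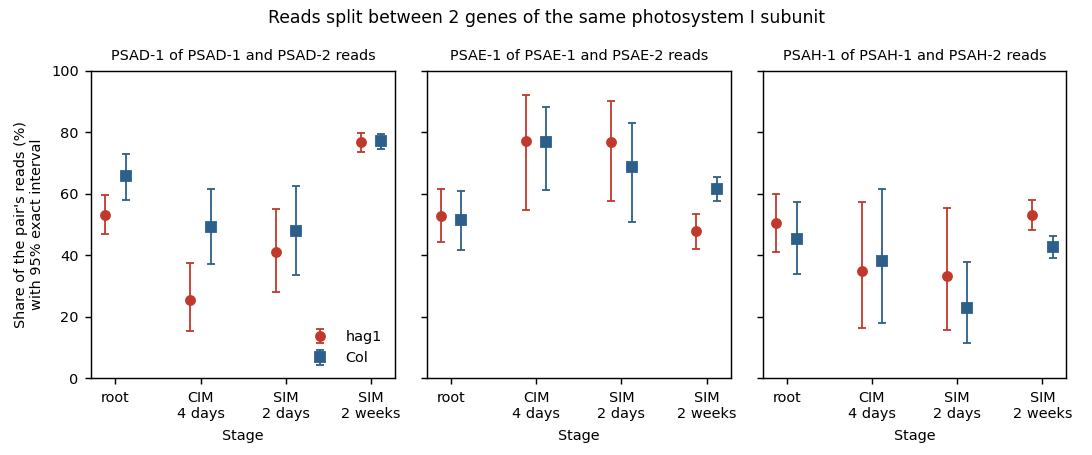
Share of a pair's reads that came from its first gene, with exact 95% intervals, at the 4 stages in hag1 (red circles) and Col (blue squares), for PSAD, PSAE and PSAH. PSAD-1 takes about the same share in hag1 and Col at 2 weeks (76.7% and 77.0%), while the 2-week shares of PSAE-1 and PSAH-1 differ between the genotypes in opposite directions.

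Genes that work with the photosystems were read from lists of the pathway. Between 2 days and 2 weeks on SIM, 5 of 7 tested electron carriers, 3 of 4 ATP synthase subunits and 10 of 12 chlorophyll synthesis genes rose. So did 7 of 12 thylakoid biogenesis, repair and kinase genes, 2 of 4 greening regulators, 1 of 5 plastid sigma factors and 7 of the 9 LHCB genes left out of the group. No gene on these lists was called lower, where 7.09% of all loci tested rose and 4.31% fell. ATPC2, the ATP synthase subunit that did not pass, had 91, 129, 78 and 53 reads in hag1 and 131, 132, 123 and 62 in Col. PETE2, a plastocyanin, had 204, 42, 45 and 797 reads in hag1 and 175, 38, 42 and 1238 in Col and rose by 4.74 (SE 0.31, edgeR adjusted p = 0.00450). CHLP, the geranylgeranyl reductase that supplies the chlorophyll tail, rose by 3.53 (SE 0.36, edgeR adjusted p = 0.00846), with reads of 1856 in hag1 and 1777 in Col at 2 weeks, and did not pass without the Col library at 2 days. The ferredoxin gene FD1 had 217, 136, 602 and 1505 reads in hag1 and 275, 68, 203 and 1684 in Col, high in hag1 at 2 days as PSBO2 and PSBX were, and did not pass at 2 weeks (2.31, SE 0.56, edgeR adjusted p = 0.0522).

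Of all genes on these lists, 1 passed for genotype, the GATA factor CGA1, which promotes chloroplast development. CGA1 had 0, 0, 0 and 21 reads in hag1 and 1, 1, 5 and 240 in Col, mostly at 2 weeks. The fitted log2 difference was -3.58 (SE 0.45, edgeR adjusted p = 0.0500, just under the threshold). The call did not hold on leaving out any 1 of the 8 libraries, with edgeR adjusted p of 0.0640 to 0.360, or under total counts (0.0643). DESeq2 gave an adjusted p of 0.00294 and limma 0.352 on log2(RPKM + 1). GLK2, a transcription factor that activates photosystem genes, had 27, 2, 1 and 15 reads in hag1 and 75, 5, 3 and 59 in Col. It was lower in hag1 in roots and at 2 weeks, and its libraries on CIM and at 2 days had at most 5 reads. The fitted log2 difference over the stages was -1.64 (SE 0.29, edgeR adjusted p = 0.0767). The LHCB locus AT1G29930, left out of the group, had 1715 reads in hag1 and 4676 in Col at 2 weeks, and 902 in hag1 and 585 in Col in roots, where LHCB1.4 and LHCB1.5 were on the other side.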

How the data were processed

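RNA-seq libraries of hag1 and Col (4 stages each, 1 library per genotype and stage) were used as deposited. Per the file headers, the authors give for each transcript model unique read counts, RPKM, percent coverage and model length; deposited RPKM matched the counts, lengths and totals in 198497 of 198497 lines, to a relative tolerance of 1e-06. The genome build is TAIR10, per the submitters' processing notes; the sources used here do not give the aligner, counter or use of strand. Counts were summed per locus (25686 loci from 30591 models).

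Differences were tested with edgeR 4.0.16 (TMM, filterByExpr, quasi-likelihood, additive stage and genotype, Benjamini-Hochberg over 18710 loci at 0.05; 3 residual degrees of freedom, biological coefficient of variation 0.264), so p-values measure the spread between these libraries around an additive pattern, which may be technical. The script was tested on simulated counts. Within a stage, ratios carry exact Clopper-Pearson intervals, for counting error only; 3 reads, the floor, equal 0.398 to 0.431 CPM of unique reads. DESeq2 1.42.0, limma 3.58.1 on log2(RPKM + 1) and log2(RPKM + 0.1), other scaling and filters, the most covered model and leaving out each library were alternatives.

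The genes and lists were chosen with earlier results of these data known. A gene was named if it was among the 3 highest of its class by mean RPKM, or among the 2 most positive or 2 most negative changes of its class for 2 weeks against 2 days on SIM, CIM against root or genotype. It was also named if it passed 0.05 for genotype or the added hag1 term, was 1 of several loci of a subunit, or passed against the median direction of a stage change. Other genes named within a stage were chosen after their values were seen. Role classes come from the gene names. All 54 genes matched a RefSeq locus tag. Promoter windows use the files' coordinates on TAIR10.1: 30367 of 30367 models with an annotated locus lay on the same chromosome and 30357 overlapped that gene; of 9023 models with the bounds of a RefSeq transcript, 7614 had its spliced length. Of the 54 genes, 24 overlap another annotated gene.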

Additional observations from a re-analysis of the deposited data

Results flagged for a closer look

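Several genes had a hag1 to Col ratio that lay on opposite sides of equality at 2 stages, with both counting intervals clear of it. Each stage has 1 library per genotype, and the difference between stages was not tested. At 2 weeks minus root, the difference in log2 ratio was -1.68 for PSAD-2, -1.45 for PSBTN, -1.41 for LHCA2, -1.28 for HCF136, -1.27 for PSBW, -1.21 for PSAG, -1.19 for PSAH-1 and -1.16 for PSAK. All 8 were higher in hag1 roots and lower in hag1 at 2 weeks. The share of all loci on opposite sides at 2 stages was not counted, so this is not shown to be particular to these genes. At 2 weeks alone the interval lay below equality for 27.5% of all loci and above it for 29.4%. PSBO2 was lower in hag1 in roots and at 2 weeks but higher after 2 days on SIM, a difference of 2.68 for 2 days minus root and -2.48 for 2 weeks minus 2 days.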

How the results depend on the processing

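No paired analysis was possible because the labels carry no replicate numbers; the stage term of the additive fit already sets hag1 against Col within each stage. DESeq2's Wald test called 1 gene lower in hag1, AT5G11450. On the log2(RPKM + 1) scale the median change was -1.27 for CIM against root and 2.77 for 2 weeks against 2 days on SIM. Leaving out 1 library at a time gave 8 to 27 genes lower on CIM than in roots, with medians of -2.51 to -1.52. It gave 12 to 33 genes higher at 2 weeks than at 2 days, with medians of 3.28 to 4.16, and 7 to 24 higher at 2 weeks than in roots. The median of the added hag1 term at 2 weeks ranged from -0.84 to -0.45, and that term could not be fitted without either library at 2 weeks. Genes at least 2-fold higher in hag1 roots numbered 2 under total counts and 2 with a minimum of 20 reads. With that minimum, 6 genes were 2-fold lower in hag1 at 2 days, and 14 lower and 1 higher at 2 weeks. The genotype median, -0.31, changed sign: leaving out 1 library gave -0.38 to 0.046, and it was 0.03 without the Col and 0.046 without the hag1 library at 2 weeks. The cause was not tested. Genes that passed in neither fit also changed sign. For genotype, leaving out 1 library gave -0.22 to 0.40 for LHCA2, -0.19 to 0.70 for PSBO2, -0.29 to 0.098 for PSBY and -0.028 to 0.066 for THF1, and THF1 was at -0.0106 under total counts, -0.0101 on log2(RPKM + 1) and -0.0107 on log2(RPKM + 0.1). For CIM against root it gave -1.11 to 0.49 for AT3G63540 and -0.27 to 0.054 for AT5G11450, and AT5G11450 was at 0.045, 0.0511 and 0.0514 under the same 3 settings. No called gene changed sign under any alternative in the 6 comparisons fitted. Scaling by total counts moved the all-loci median to 0.17 for CIM against root and -0.19 for 2 weeks against 2 days, and kept 25 of 27 and 31 of 34 calls. Over all loci it called 2809 higher and 2641 lower against 2384 and 3178 for CIM against root, and 864 higher and 968 lower against 1326 and 807 for 2 weeks against 2 days. Depth limits the callus stages, where 10 and 12 genes reached 50 reads, and the 9 genes not tested. With 1 library per group, culture and genotype cannot be told apart.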
